A study of Mus musculus with 6 samples.

Results

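The genes described here encode respiratory complexes II to V, the part of oxidative phosphorylation that follows or runs beside complex I, with cytochrome c and the factors that assemble these complexes. A list of 53 nuclear genes was drawn up by function, and each was read from probe sets whose platform annotation gives that gene, under its current or an older symbol, as the only name. This gave values for 48 of the 53 genes, out of 21996 named genes on the array. Uqcr10, Cox6c, Sco2 and Cox11 shared their probe sets with other symbols, and Atp5o had no probe set named here, so these 5 genes were not analysed here. The 48 comprised 4 complex II subunits, 9 genes of complex III with cytochrome c, 10 complex IV subunits, 14 ATP synthase subunits and 11 assembly factors.

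The cells were adipocytes made from the mouse mesenchymal line C3H10T1/2, which forms fat cells under hormonal induction, at 9 days of differentiation. In 3 biological replicates an adenovirus carried a short hairpin RNA against Zc3h10, the gene of a CCCH zinc finger protein, behind a U6 promoter (Zc3h10 shRNA), and in 3 it carried a scrambled hairpin (scramble). Both groups had the virus for 72 h at a multiplicity of infection of 50, so the controls share the viral exposure; when within the 9 days it began was not given in the sources used here. RNA of each culture went to its own single-colour Affymetrix Mouse Gene ST array, which gave 1 intensity for each of 33079 probe sets. Median intensities were 15.7 to 16.1 on the shRNA arrays and 15.6 to 15.7 on the scramble arrays, and precision is limited by having 3 arrays in each group. The targeted transcript averaged 26.1 ± 3.72 intensity units in Zc3h10 shRNA cells and 33.4 ± 6.77 in scramble cells (SD, n = 3 each), a log2 change of −0.34 ± 0.17 without a call (limma with Benjamini-Hochberg adjustment, p = 0.301; two-sided exact permutation test over arrays, p = 0.2 with a floor of 0.1 for groups of 3). The 2 groups overlapped for it, so the arrays are called here by their labels.

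Respiratory complexes sit in the inner mitochondrial membrane and pass electrons from fuels to oxygen. Complex II, succinate dehydrogenase, also works in the tricarboxylic acid cycle and hands electrons to ubiquinone, complex III passes them to cytochrome c, and complex IV, cytochrome c oxidase, reduces oxygen. Complexes III and IV pump protons, and ATP synthase, or complex V, lets the protons back to make ATP. Adipocytes gain mitochondria as they differentiate, and brown and beige fat cells carry the most respiratory chain of all fat cells. All genes given here are nuclear; complexes III, IV and V also hold subunits encoded by mitochondrial DNA, which were not analysed here.

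Genes of complexes II to V were mostly lower in Zc3h10 shRNA cells. Of the 48 measured genes, 20 fell (limma over all probe sets, adjusted p under 0.05), or 41.7%, where 5.48% of all probe sets were lower by the same rule and 10.4% of those at or above the median level. None of the 48 rose, by limma, at an unadjusted p under 0.05 or with an ordinary statistic, where 4.31% of all probe sets, and 7.97% of those at or above the median level, were higher (9.79% in either direction). Log2 changes, Zc3h10 shRNA minus scramble, lay between −1.11 and 0.13 with a median of −0.32, beside a median of 0.01 over all probe sets. The changes were modest: 3 genes, Cycs, Atpaf2 and Sdhd, were at under 50% of their scramble level. By group, calls were made for 3 of 4 genes in complex II, 7 of 9 in complex III with cytochrome c, 2 of 10 in complex IV, 4 of 14 in ATP synthase and 4 of 11 among the assembly factors. Differences between these groups were not tested, and their order turned with the fit: complex II had 1 of 4 in 4 of the 6 fits with 1 array left out, and ATP synthase had 1 of 14, against 2 of 10 in complex IV, without scramble array 2, shRNA array 2 or shRNA array 3. Of the 28 genes without a call, 25 had a change below 0. The shRNA arrays all lay below the scramble arrays for 38 of the 48 genes, where 13.3% of all probe sets, and 21.6% of those at or above the median level, did so.

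Each shRNA array carried the shift. The median over the 48 genes, each set against its own scramble mean, was −0.32, −0.39 and −0.34 on shRNA arrays 1 to 3 and −0.07, 0.10 and −0.02 on scramble arrays 1 to 3. All 3 shRNA arrays thus lay below all 3 scramble arrays, but the scramble arrays were not alike. Scramble array 2 was the highest of its group for 37 of the 48 genes, and without it 12 genes were called in place of 20. The count was 13 without shRNA array 2 and 13 without shRNA array 3. Fewer of all probe sets were lower in these fits too, at 3.25% without scramble array 2 and 3.56% without either of these shRNA arrays. The 12 genes that passed without each single array in turn were Sdhd, Cycs, Uqcrc1, Uqcrc2, Uqcrfs1, Cyc1, Cox6b1, Cox5b, Atp5a1, Atpaf2, Surf1 and Cox15.

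**Figure D1:**
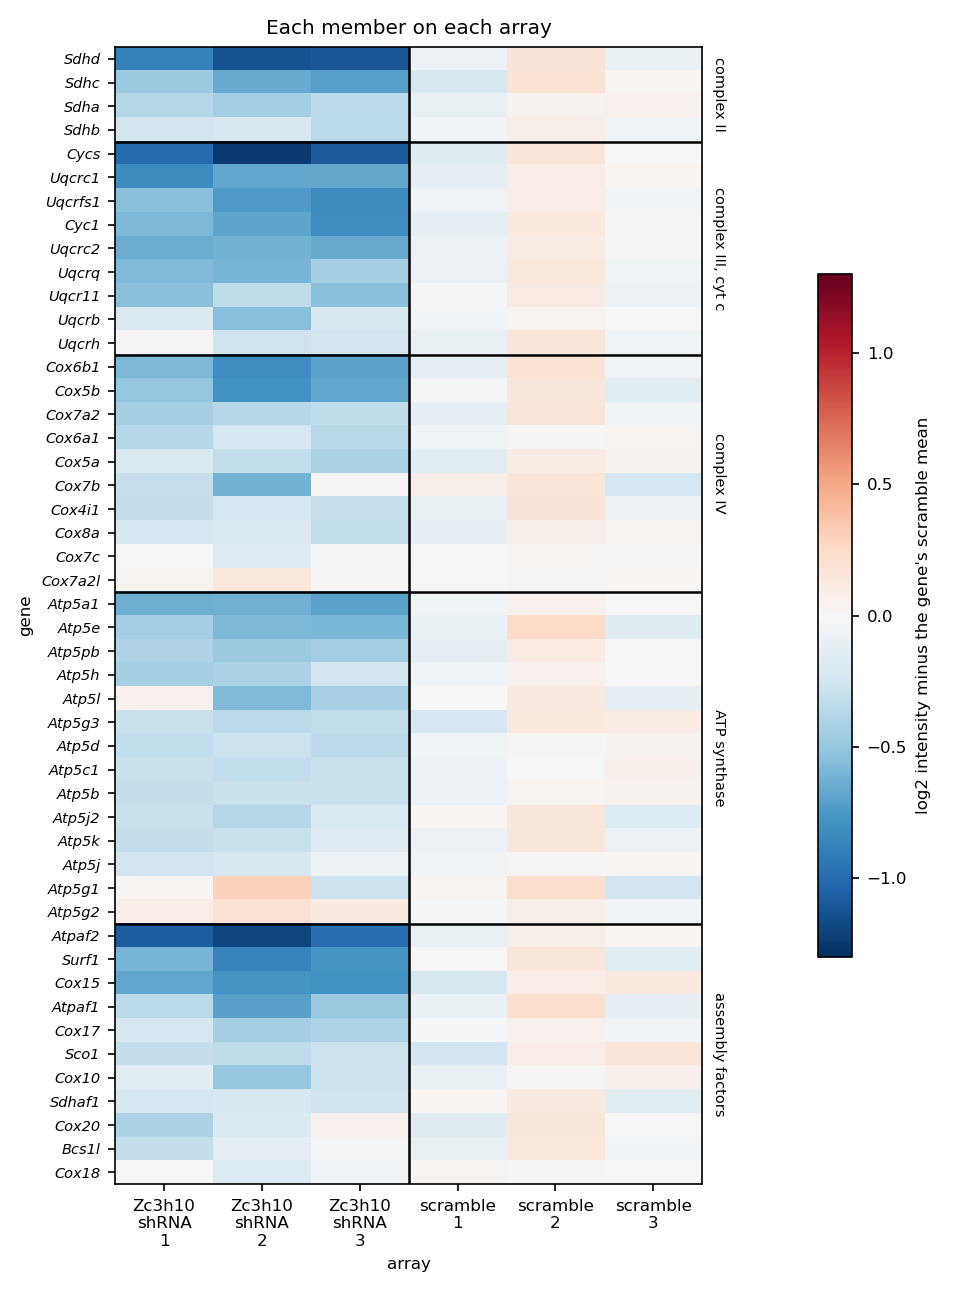
Log2 intensity of each of the 48 genes on each of the 6 arrays, minus that gene's mean over the 3 scramble arrays (blue lower, red higher), with the shRNA arrays on the left and genes grouped by complex. Cycs, Atpaf2 and Sdhd are the darkest blue rows, and scramble array 2 is the reddest column.

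The cultures differed in more than respiratory genes. For the marker counts that follow, 5.48% of all probe sets were lower and 4.31% higher. Among probe sets at or above the median level these shares were 10.4% and 7.97%. Of 10 measured markers of adipocytes, 9 fell, and the summed intensity of all 10 was 10026 to 11025 in Zc3h10 shRNA cells and 18483 to 20496 in scramble cells, while Lep lay at background in both. Of 8 markers of mesenchymal progenitors or fibroblasts, 3 rose and Pdgfra fell, with a summed intensity of 6125 to 6431 in shRNA cells and 4778 to 5407 in scramble cells. All 4 markers of proliferating cells rose, with sums of 591 to 687 in shRNA cells and 307 to 390 in scramble cells. Fewer adipocytes, or fewer mitochondria-rich cells, and less of these RNAs per cell cannot be told apart in such bulk samples, and the part of these markers in the respiratory changes was not tested. None of the 4 muscle, 3 cartilage or 4 leukocyte markers passed the threshold. The muscle markers summed to 63.9 to 87.8 in shRNA cells and 63.2 to 79.9 in scramble cells, with 3 of 4 at background, and the leukocyte markers to 55.4 to 72.2 in shRNA cells and 67.6 to 70.8 in scramble cells, also with 3 of 4 at background. Of the 3 measured bone markers 2 fell, Ibsp and Bglap. The mean of Ibsp lay at background in shRNA cells, and that of Bglap in both groups.

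**Figure D2:**
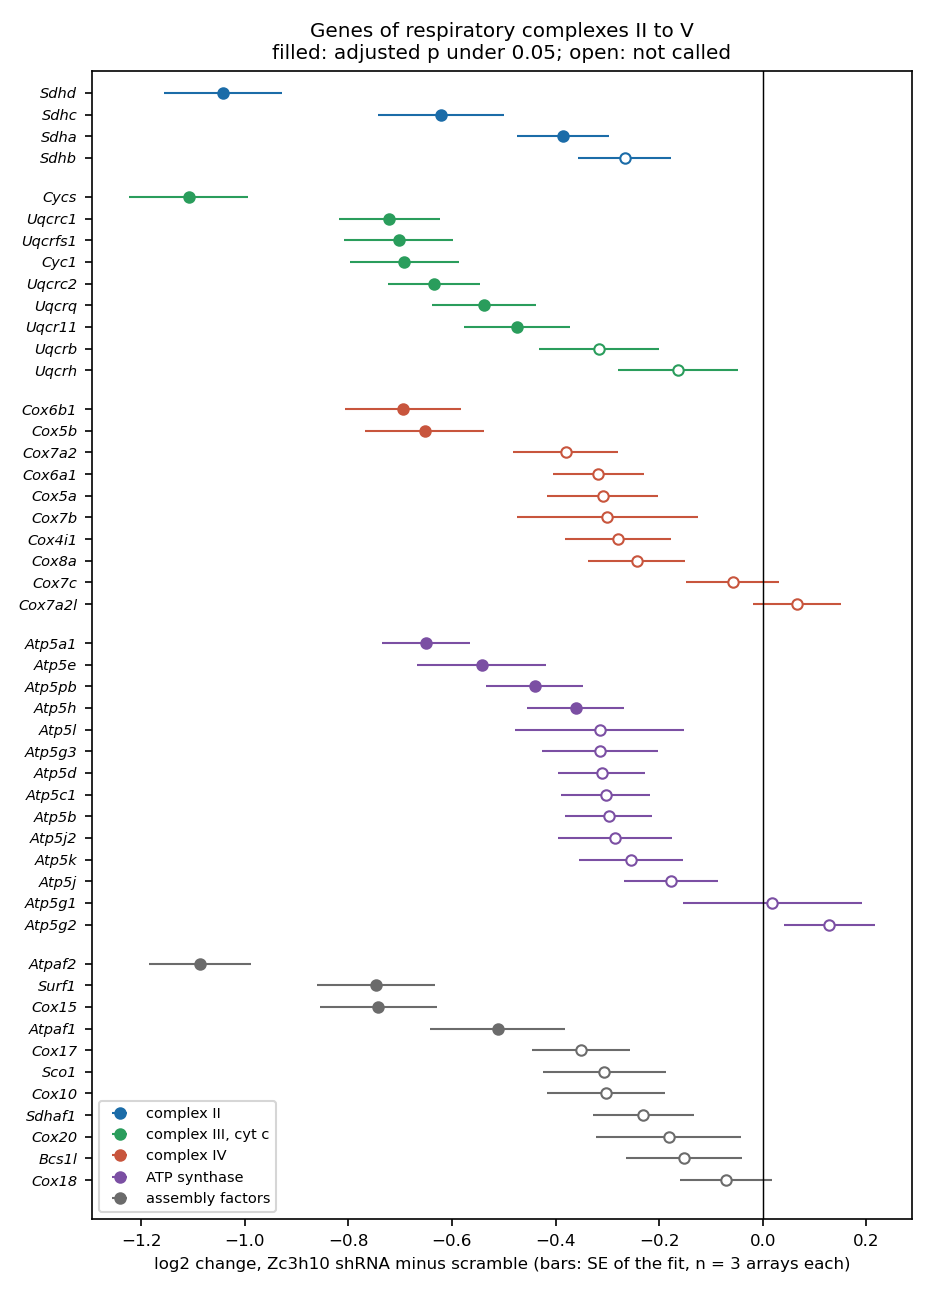
Each point is the log2 change of 1 of the 48 genes between Zc3h10 shRNA and scramble cells, bars are standard errors of the limma fit (n = 3 arrays per group), and points are filled where the adjusted p was under 0.05. Filled points are 3 of 4 in complex II, 7 of 9 in complex III with cytochrome c, 2 of 10 in complex IV, 4 of 14 in ATP synthase and 4 of 11 among the assembly factors.

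The promoters of these genes were searched for the letters bound by factors known to act on respiratory genes. The 7 windows shown are of genes that the results turn on. They include the strongest fall of complex II, of complex III with cytochrome c (Cycs), of complex IV and of the assembly factors. A complex III core gene was chosen for its matches. The last 2 are c subunit genes, neither of them called, whose groups were apart in opposite directions. RefSeq (GRCm38.p6) windows from 250 bases before to 50 after a gene start were at hand for 39 of the 48 genes, 43 windows in all. Searched on both strands were GCGCA and GCGC with any 1 base between them (NRF1), CCGGAAG (ETS factors such as GABPA), ATGGCGG (YY1) and AAGGTCA (ERRα). Sequences run 5′ to 3′ on the gene's strand, and capitals mark the matches.
Sdhd (chr9:50603800-50604099, - strand): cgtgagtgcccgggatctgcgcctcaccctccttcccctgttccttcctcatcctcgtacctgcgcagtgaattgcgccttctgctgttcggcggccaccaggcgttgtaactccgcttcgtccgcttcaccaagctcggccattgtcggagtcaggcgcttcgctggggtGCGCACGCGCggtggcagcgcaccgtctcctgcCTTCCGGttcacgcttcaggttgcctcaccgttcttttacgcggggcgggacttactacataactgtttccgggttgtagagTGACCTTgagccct
Cycs (chr6:50566520-50566819, - strand): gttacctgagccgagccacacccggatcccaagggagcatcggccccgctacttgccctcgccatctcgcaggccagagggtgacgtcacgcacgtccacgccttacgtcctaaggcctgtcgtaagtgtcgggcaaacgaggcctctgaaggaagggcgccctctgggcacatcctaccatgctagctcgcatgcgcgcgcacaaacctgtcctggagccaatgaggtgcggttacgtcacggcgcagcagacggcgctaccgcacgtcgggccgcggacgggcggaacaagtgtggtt
Uqcrc1 (chr9:108936398-108936697, + strand): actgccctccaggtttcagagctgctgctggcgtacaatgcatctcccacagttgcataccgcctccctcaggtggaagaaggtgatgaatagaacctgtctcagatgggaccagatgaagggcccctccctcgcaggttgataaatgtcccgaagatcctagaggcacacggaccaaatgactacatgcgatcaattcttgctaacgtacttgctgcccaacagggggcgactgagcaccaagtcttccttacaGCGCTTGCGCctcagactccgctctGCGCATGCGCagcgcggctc
Cox6b1 (chr7:30626065-30626364, - strand): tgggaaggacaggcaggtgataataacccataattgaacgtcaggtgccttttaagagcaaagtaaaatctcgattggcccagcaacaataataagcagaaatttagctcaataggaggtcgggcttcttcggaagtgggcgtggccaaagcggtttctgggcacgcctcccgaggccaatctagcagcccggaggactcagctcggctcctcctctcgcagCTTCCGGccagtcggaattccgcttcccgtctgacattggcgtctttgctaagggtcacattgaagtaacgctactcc
Atpaf2 (chr11:60416985-60417284, - strand): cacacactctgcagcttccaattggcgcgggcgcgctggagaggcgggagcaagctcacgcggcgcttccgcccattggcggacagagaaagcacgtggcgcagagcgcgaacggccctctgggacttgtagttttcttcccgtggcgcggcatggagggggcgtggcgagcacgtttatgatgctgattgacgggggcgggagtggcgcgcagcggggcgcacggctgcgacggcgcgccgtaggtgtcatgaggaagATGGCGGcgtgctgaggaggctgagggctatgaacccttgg
Atp5g3 (chr2:73911277-73911576, - strand): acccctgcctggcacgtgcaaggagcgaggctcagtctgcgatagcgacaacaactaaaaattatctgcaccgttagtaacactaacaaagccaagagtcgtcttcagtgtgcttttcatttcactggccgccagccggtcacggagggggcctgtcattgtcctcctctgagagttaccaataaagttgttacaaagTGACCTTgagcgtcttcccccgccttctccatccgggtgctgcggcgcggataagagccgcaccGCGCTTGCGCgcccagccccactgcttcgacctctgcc
Atp5g2 (chr15:102670998-102671297, - strand): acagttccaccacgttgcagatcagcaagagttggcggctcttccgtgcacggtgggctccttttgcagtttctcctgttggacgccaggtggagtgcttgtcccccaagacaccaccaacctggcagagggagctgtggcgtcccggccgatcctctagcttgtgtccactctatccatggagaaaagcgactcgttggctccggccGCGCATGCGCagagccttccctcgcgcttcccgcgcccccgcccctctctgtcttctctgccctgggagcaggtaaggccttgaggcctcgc
The capitals are NRF1, ETS and ERRα letters in that order in Sdhd, none in Cycs, 2 NRF1 matches in Uqcrc1, an ETS match in Cox6b1, a YY1 match in Atpaf2, ERRα and then NRF1 letters in Atp5g3, and an NRF1 match in Atp5g2. ETS letters were in 19 of the 43 windows (44.2%), against 8.86% of 32851 windows of all genes and 16.2% of 12693 windows of genes at or above the median level. NRF1 letters were in 9 of 43 (20.9%), against 4.60% of all windows and 9.29% of those at or above the median level. YY1 and ERRα letters were in 5 of 43 each (11.6%), against 4.05% and 4.72% of all windows and 7.33% and 3.11% of those at or above the median level. The letters AGGTCA repeated after 1 base (PPAR), also searched, were in 0 of 43, against 13 of 32851 windows of all genes (0.0396%). A run this rare could hardly occur in 43 windows, so the 0 says nothing about these genes. By call, ETS letters were in 7 of 16 windows of genes that fell (43.8%) and in 12 of 27 windows of the others (44.4%), and NRF1 letters in 4 of 16 and 5 of 27. No promoter comparison was tested, and a match is a run of letters, not a site of binding.

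In complex II, 3 of 4 subunits fell, with a median log2 change of −0.50. Sdhd, 1 of the pair of small membrane anchors that hold the ubiquinone site, stood at 364, 305 and 310.2 intensity units on the 3 shRNA arrays, against 633, 752 and 631 on the scramble arrays. This was 48.6% of the scramble level (log2 change −1.04 ± 0.11, SE; limma, adjusted p = 0.00151), with no overlap between the groups. The other anchor, Sdhc, stood at 436, 387 and 372 intensity units on the 3 shRNA arrays, against 531, 692 and 622 on the scramble arrays, with the groups again apart (−0.62 ± 0.12, adjusted p = 0.0165). Sdha, the flavoprotein that oxidises succinate, fell less, with 1394, 1329 and 1419 intensity units on the 3 shRNA arrays, against 1683, 1856 and 1875 on the scramble arrays (−0.39 ± 0.09, adjusted p = 0.0323). Sdhb, the iron-sulfur subunit between them, had 285, 291 and 265 intensity units on the 3 shRNA arrays, against 329, 357 and 327 on the scramble arrays; the groups did not overlap, but the change of −0.27 ± 0.09 did not pass (adjusted p = 0.119). Sdha fell out of the calls without any 1 array other than scramble array 1, and Sdhc without scramble array 2 or 3 or shRNA array 2 or 3, so the count was 1 in those 4 fits.

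In complex III with cytochrome c, 7 of 9 genes fell, with a median log2 change of −0.63. Cycs encodes cytochrome c, the mobile carrier between complexes III and IV that also starts apoptosis when released. It had 1535, 1297 and 1442 intensity units on the 3 shRNA arrays, against 2738, 3421 and 3070.4 on the scramble arrays, the deepest fall of all 48 genes (46.4% of scramble, log2 change −1.11 ± 0.11, adjusted p = 0.00125). All 5 probe sets named Cycs were lower at the threshold, at −0.96 to −1.46, although 2 of them hold the same values and processed copies of this gene can bind its probes. The structural core proteins followed. Uqcrc1 had 621, 686 and 694 intensity units on the 3 shRNA arrays, against 1015, 1166 and 1117 on the scramble arrays (−0.72 ± 0.10, adjusted p = 0.00336), and its partner Uqcrc2 had 594, 606 and 591 intensity units on the 3 shRNA arrays, against 879, 992 and 914 on the scramble arrays (−0.63 ± 0.09, adjusted p = 0.00378). Both core genes kept a wide gap between the groups. Uqcrfs1, the Rieske iron-sulfur protein that takes electrons from ubiquinol, had 102, 89.0 and 83.2 intensity units on the 3 shRNA arrays, against 143, 158 and 144 on the scramble arrays (−0.70 ± 0.10, adjusted p = 0.00515). Cyc1, the haem protein that passes them on, was lower by nearly the same step (−0.69 ± 0.10, adjusted p = 0.00544). The genes of both nuclear-encoded redox subunits and of both core proteins were thus all called. Among the small supernumerary subunits, Uqcrq (−0.54 ± 0.10, adjusted p = 0.0134) and Uqcr11 (−0.47 ± 0.10, adjusted p = 0.0242) fell. Uqcrb, at −0.32 ± 0.12, and the hinge protein gene Uqcrh, at −0.16 ± 0.12, did not pass (adjusted p = 0.152 and 0.490).

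In complex IV 2 of 10 subunits fell, Cox6b1 and Cox5b, beside 10.4% of probe sets at or above the median level. The median log2 change was −0.30. For 7 of the 10 every shRNA array lay below every scramble array, beside 21.6% of those brighter probe sets. Cox6b1, which lies on the side of the membrane where cytochrome c docks, had 498, 425 and 458 intensity units on the 3 shRNA arrays, against 680.2, 838 and 721 on the scramble arrays (−0.69 ± 0.11, adjusted p = 0.00700). Cox5b, a zinc-binding subunit on the matrix side, had 739, 607 and 657 intensity units on the 3 shRNA arrays, against 1038, 1158 and 952 on the scramble arrays (−0.65 ± 0.11, adjusted p = 0.0101). A dimmer probe set of Cox5b, within background, had −0.40 ± 0.11 and did not pass (adjusted p = 0.0624). Whether the brighter Cox5b probe set lies at the gene itself was not checked. Next in order was Cox7a2, with 599, 625 and 645 intensity units on the 3 shRNA arrays, against 746, 907 and 789 on the scramble arrays (−0.38 ± 0.10, adjusted p = 0.0558). Cox6a1 had 5703, 6303 and 5739 intensity units on the 3 shRNA arrays, against 7094, 7445 and 7558 on the scramble arrays (−0.32 ± 0.09, adjusted p = 0.0645). In both genes the groups were apart, while the adjusted p lay just above the threshold. Cox5a, Cox7b, Cox4i1 and Cox8a had changes of −0.31, −0.30, −0.28 and −0.24, with Cox7b the only one of them whose groups overlapped. Cox7a2l, which joins complexes III and IV into supercomplexes, was at 0.07 ± 0.08, and Cox7c, at −0.06 ± 0.09, was read at background, which here means a mean log2 under 4.37, a limit near the top of the range of 1379 odorant and pheromone receptor genes. The complex IV count depended on the fit. It was 4 with arrays centred on their medians or with dim probe sets left out, and 5 with an offset. It was 7 with an intensity trend in the prior and 0 with an ordinary statistic. Of all probe sets, 7.19% were lower with the trend and 3.20% with the ordinary statistic.

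Of the complex IV isoforms known from heart, muscle or brown fat, Cox8b and Cox7a1 fell, to 30.4% and 27.3% of their scramble levels. Cox8b had 202, 213 and 200.3 intensity units on the 3 shRNA arrays, against 612, 792 and 632 on the scramble arrays (−1.72 ± 0.12, adjusted p = 0.000658), where its partner Cox8a was at −0.24. Cox7a1 had 64.0, 24.3 and 44.7 intensity units on the 3 shRNA arrays, against 180.4, 150.1 and 127 on the scramble arrays (−1.88 ± 0.32, adjusted p = 0.00857), where Cox7a2 was at −0.38, and the spread among its shRNA arrays was wide. With an ordinary statistic Cox7a1 did not pass (adjusted p = 0.107). The difference of the 2 changes was −1.47 for Cox8b minus Cox8a, with a 95% interval of −1.71 to −1.24, and −1.49 for Cox7a1 minus Cox7a2, with an interval of −2.27 to −0.72. Both intervals lie below 0, and the within-array differences did not overlap between groups, but the exact permutation p could not go below 0.1 (0.133 adjusted over the 8 pairs compared). Cox4i2 and Cox6a2 were at background in both groups, so the differences from Cox4i1 (0.74) and Cox6a1 (0.30), which did not overlap between groups, compare a dim probe set with a bright one. Cox8b and Cox7a1 stood on the list of brown or beige markers too, of which 4 of 7 fell: these and Cidea and Elovl3. Of all probe sets 5.48% were lower, and 10.4% of those at or above the median level. Summed intensities of all 7 were 505 to 665 in shRNA cells and 2018 to 2412 in scramble cells. The other 3, Ucp1, Dio2 and Ppargc1a, lay at background in both groups. The part of these markers in the wider pattern was not tested.

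**Figure D3:**
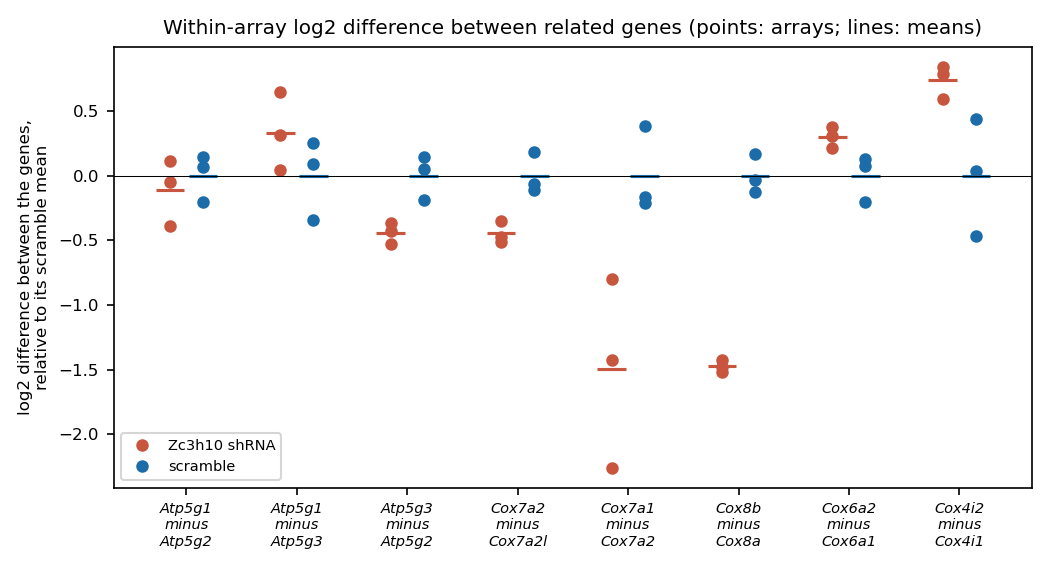
Log2 difference between 2 related genes on each array, relative to the mean of the scramble arrays, for 8 pairs, with shRNA arrays in red left of scramble arrays in blue and a line at each mean. In shRNA cells Cox8b and Cox7a1 lie at −1.47 and −1.49 relative to their partners, and Atp5g3 and Cox7a2 at −0.44 and −0.45 relative to theirs.

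Of the 14 measured ATP synthase subunits 4 fell (28.6%, beside 10.4% of probe sets at or above the median level), with a median log2 change of −0.31. For 11 every shRNA array lay below every scramble array, beside 21.6% of those brighter probe sets. In the catalytic head, Atp5a1, the alpha subunit, had 1950.2, 1956 and 1863 intensity units on the 3 shRNA arrays, against 2900.2, 3144 and 3016 on the scramble arrays (−0.65 ± 0.08, adjusted p = 0.00288). The beta subunit gene Atp5b, which carries the catalytic sites, had 5210.3, 5289 and 5285 intensity units on the 3 shRNA arrays, against 6154, 6607 and 6654 on the scramble arrays; its fold was smaller and did not pass (−0.30 ± 0.08, adjusted p = 0.0670). Both genes were read at very high signal. In the central stalk, Atp5e, the epsilon subunit, had 252, 228 and 226 intensity units on the 3 shRNA arrays, against 322, 407 and 306 on the scramble arrays (−0.54 ± 0.13, adjusted p = 0.0315), while the gamma and delta genes Atp5c1 and Atp5d were at −0.30 ± 0.09 and −0.31 ± 0.08 (adjusted p = 0.0666 and 0.0573). In the peripheral stalk that holds the head still, Atp5pb, the b subunit, had 756, 714 and 729 intensity units on the 3 shRNA arrays, against 919.8, 1072 and 996 on the scramble arrays (−0.44 ± 0.09, adjusted p = 0.0223). Atp5h, the d subunit of that stalk, had 1362, 1384 and 1559 intensity units on the 3 shRNA arrays, against 1776, 1908 and 1839 on the scramble arrays (−0.36 ± 0.09, adjusted p = 0.0488), the weakest call of all, and a dimmer probe set of the same gene was at 0.04 (adjusted p = 0.899). Whether the brighter Atp5h probe set lies at the gene itself was not checked. Atp5j, also of the stalk, was at −0.18 ± 0.09. The small membrane subunits Atp5l, Atp5k and Atp5j2 were at −0.32, −0.26 and −0.29, none of them called and Atp5j2 at background. Atp5a1 was the only ATP synthase gene that passed in every fit with 1 array left out, and the count was 1 without scramble array 2, shRNA array 2 or shRNA array 3 and 2 without scramble array 3.

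The rotor ring of ATP synthase is built from the c subunit, whose mature protein is the same from 3 genes. Atp5g2 had 1589, 1711 and 1624 intensity units on the 3 shRNA arrays, against 1469.7, 1586 and 1451 on the scramble arrays, with all shRNA arrays above all scramble arrays, although the change of 0.13 ± 0.09 did not pass (adjusted p = 0.472). A second probe set of this gene gave the same change, 0.13. Atp5g3 had 579, 558 and 568 intensity units on the 3 shRNA arrays, against 607, 772 and 753 on the scramble arrays, with the groups apart in the other direction (−0.31 ± 0.11, adjusted p = 0.142). The difference between these 2 changes, Atp5g3 minus Atp5g2, was −0.44 ± 0.11 with a 95% interval of −0.70 to −0.19, and the within-array differences did not overlap (exact permutation p = 0.1, the smallest possible, 0.133 adjusted over 8 pairs). Atp5g1 was at background, with 19.3, 23.3 and 15.6 intensity units on the 3 shRNA arrays, against 19.4, 22.0 and 15.9 on the scramble arrays, and its change of 0.02 ± 0.17 turned to −0.11 without scramble array 3 and −0.12 without shRNA array 2. Its differences from the other c genes had intervals that include 0, at −0.11 (95% interval −0.46 to 0.24, exact permutation p = 0.6) for Atp5g1 minus Atp5g2 and 0.33 (−0.11 to 0.78, exact permutation p = 0.3) for Atp5g1 minus Atp5g3. Cox7a2 minus Cox7a2l was at −0.45 ± 0.11 (95% interval −0.70 to −0.20, exact permutation p = 0.1, 0.133 adjusted over 8 pairs).

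**Figure D4:**
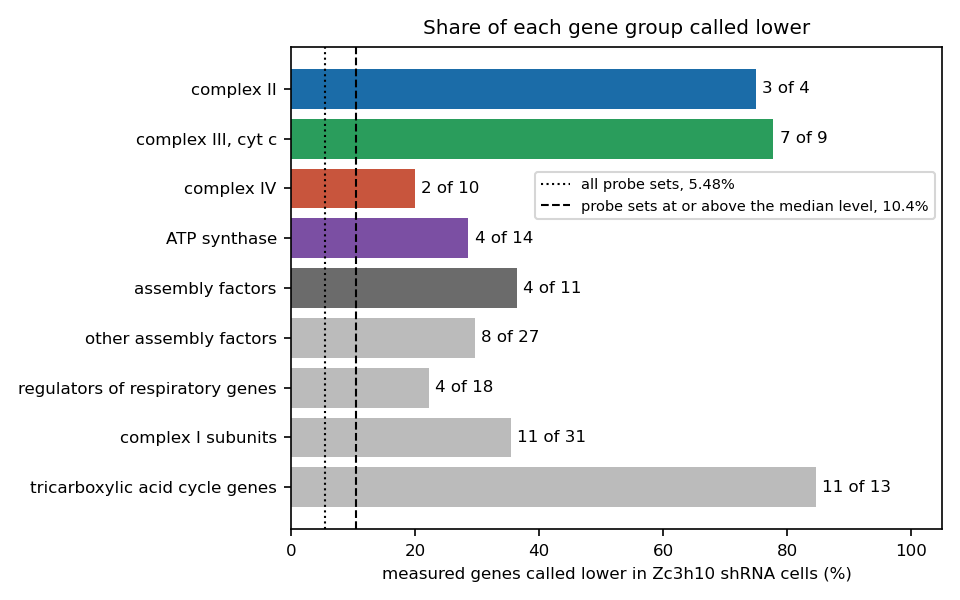
Share of measured genes called lower in Zc3h10 shRNA cells (limma, adjusted p under 0.05) for each group, with counts beside the bars and the share of all probe sets (5.48%) and of probe sets at or above the median level (10.4%) as vertical lines. Complex II, complex III with cytochrome c and the tricarboxylic acid cycle lie at 75.0% to 84.6%, and each of the other groups at 36.4% or less.

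Among the 11 assembly factors 4 fell (36.4%, beside 10.4% of probe sets at or above the median level), with a median of −0.31 and every change below 0. Atpaf2, the chaperone of the alpha subunit of ATP synthase, had 167, 153 and 177 intensity units on the 3 shRNA arrays, against 328, 369.8 and 358 on the scramble arrays (47.1% of scramble, −1.09 ± 0.10, adjusted p = 0.000867), the smallest adjusted p of the 48 genes. Atpaf1, the chaperone of the beta subunit, had 127, 99.9 and 117 intensity units on the 3 shRNA arrays, against 154, 187 and 149 on the scramble arrays (−0.51 ± 0.13, adjusted p = 0.0456). The groups did not overlap for either chaperone gene, but the Atpaf1 call was lost without any 1 array other than shRNA array 1, with quantile scaling and with an ordinary statistic. Surf1, an early factor of complex IV assembly that is mutated in Leigh syndrome in humans, had 213, 177 and 189.9 intensity units on the 3 shRNA arrays, against 324, 358 and 292 on the scramble arrays (−0.75 ± 0.11, adjusted p = 0.00569). Cox15, an enzyme of haem a synthesis, had 240.2, 224 and 222 intensity units on the 3 shRNA arrays, against 330.2, 405 and 419 on the scramble arrays (−0.74 ± 0.11, adjusted p = 0.00552). Cox10, which acts a step before Cox15, had a log2 change of −0.30 ± 0.11 without a call (adjusted p = 0.164). The copper chaperones Cox17 and Sco1 were at −0.35 ± 0.09 and −0.31 ± 0.12 (adjusted p = 0.0570 and 0.176). Cox20 and Cox18, which handle the second subunit of complex IV, were at −0.18 and −0.07, Sdhaf1, an iron-sulfur factor of complex II, at −0.23, and Bcs1l, which inserts the Rieske protein, at −0.15, all without a call. In complex III the Rieske protein gene was thus called and its inserter was not, a difference that was not tested.

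A wider list of 27 measured assembly factors outside the 48 genes held 8 lower and 2 higher, with a median of −0.26. The 8 lower were 29.6%, beside 10.4% of probe sets at or above the median level. The falls were led by Higd1a, a small respirasome-associated protein (−0.68 ± 0.10, adjusted p = 0.00566), the ATP synthase factor Tmem70 (−0.53 ± 0.09, adjusted p = 0.00946) and the complex IV factor Coa5 (−0.57 ± 0.10, adjusted p = 0.0108). Lyrm7, a complex III factor that binds the Rieske protein, was next (−0.50 ± 0.10, adjusted p = 0.0157) but lay within background, the only one of the 8 to do so. The 2 higher of 27 stand beside 7.97% of probe sets at or above the median level that were called higher, so their share is near the background. Uqcc2, which helps make cytochrome b, had 114, 134 and 126 intensity units on the 3 shRNA arrays, against 81.0, 89.2 and 92.6 on the scramble arrays (0.51 ± 0.10, adjusted p = 0.0171). Hccs, the enzyme that attaches haem to cytochrome c and to Cyc1, had 917, 1042 and 966 intensity units on the 3 shRNA arrays, against 748, 703 and 761 on the scramble arrays (0.40 ± 0.09, adjusted p = 0.0301). Groups did not overlap for either gene. Neither rise passed with an ordinary statistic (adjusted p = 0.0603 and 0.0519), both were lost without scramble array 1, scramble array 2, shRNA array 2 or shRNA array 3, and that of Hccs also without scramble array 3. The 8 falls became 3 without scramble array 2 or shRNA array 2, 4 without scramble array 3, and 5 without shRNA array 1 or shRNA array 3.

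Of 18 measured regulators of respiratory genes, 4 fell (22.2%, beside 10.4% of probe sets at or above the median level). Gabpa encodes 1 of the ETS factors, which share the ETS letters searched above. It had 189, 176 and 182 intensity units on the 3 shRNA arrays, against 249, 274 and 288 on the scramble arrays (−0.56 ± 0.09, adjusted p = 0.00806). A link between its level and the windows was not tested. Ppara, a lipid-sensing nuclear receptor, had 33.3, 34.4 and 34.2 intensity units on the 3 shRNA arrays, against 47.7, 53.1 and 58.3 on the scramble arrays (−0.64 ± 0.10, adjusted p = 0.00620). Both genes had no overlap between groups. The coactivator gene Ppargc1b was at −0.74 ± 0.16 (adjusted p = 0.0249), and Tfb1m, which modifies mitochondrial ribosomal RNA, at −0.37 ± 0.09 (adjusted p = 0.0366). With an ordinary statistic Ppargc1b did not pass (adjusted p = 0.143). The count of lower regulators was then 3, where 3.20% of all probe sets were lower. The count was 2 without scramble array 2 or 3 or shRNA array 2 or 3. In those fits 3.25% to 3.59% of all probe sets were lower, beside 5.48% with all arrays. The share among brighter probe sets was not counted there. Nrf1, whose letters were also searched, was at 0.01 ± 0.09, Esrra at −0.18 ± 0.14, Yy1 at −0.11 ± 0.09 and Tfam at −0.34 ± 0.20, none with a call, and Ppargc1a was at background.

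The most similar sets are complex I and the tricarboxylic acid cycle. Of 31 measured complex I subunits 11 fell (35.5%, median −0.29), led by Ndufb8, Ndufb3, Ndufb6 and Ndufs1, at −0.93, −1.25, −0.63 and −0.73. This was 7 without shRNA array 3. The order against complexes II to V was not stable: without scramble array 2 the counts were 12 of 48 in complexes II to V and 8 of 31 in complex I, and without scramble array 1 they were 18 of 48 and 12 of 31. Of 13 cycle genes 11 fell (84.6%, median −0.55), led by Idh3a at −1.31, Cs at −0.71, Idh3b at −0.70 and Sucla2 at −0.74, and this was 7 without scramble array 2 or scramble array 3. Complex II, which belongs to both the cycle and the chain, was at 75.0% of 4 genes. These shares rest on small groups measured on the same 6 arrays, and the differences between them were not tested.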

How the data were processed

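Total RNA from 6 cultures was hybridised to 1 array each, per the labels. The authors deposited 1 linear intensity per probe set and array, with array medians already close. The submitters' processing notes list Partek 6.6 and Affymetrix Expression Console without a role. How background was corrected and probes were summarised was not given in the sources used here; both weigh most on dim probe sets. Log2 was taken without a pseudocount. In R 4.3.3, limma 3.58.1 fitted all 33079 probe sets (lmFit, eBayes; 4 residual degrees of freedom, two-sided, no block), with Benjamini-Hochberg adjustment over all of them and a threshold of 0.05, the limit the submitters name. The replicate numbers were not taken as pairs in this fit.

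Of the probe sets, 23043 had 1 symbol, 1740 several and 8296 none here. Each gene was read from its brightest probe set by mean log2, and gene numbers led to RefSeq windows of GRCm38.p6. Probes can also bind transcripts of paralogs, pseudogenes or overlapping genes. For members with several probe sets, such as Cox5b, Atp5h and Atp5g2, whether the brightest one lies at the gene itself was not checked. Paralog pairs were tested on within-array log2 differences, with intervals from limma and exact permutation tests over arrays. The members, lists and naming rule were chosen with earlier results of these data known: every member is accounted for, with arrays shown for the 4 smallest p of each group and the c subunit genes, and the 4 smallest p of other lists are named. Yy1, Esrra, Tfam, Nrf1 and Ppargc1a, the Uqcrc1 window and the marker genes named were chosen after their values were seen. Simulated data with known changes were used to test the code. Alternatives were 3 scalings, an offset of 32, 2 filters on dim probe sets, an intensity trend in the prior, an ordinary statistic, a replicate block, the mean of all probe sets of a gene, and each array left out.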

Additional observations from a re-analysis of the deposited data

How the results depend on the processing

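With all arrays kept, the count of 20 lower members ranged from 14 with the ordinary statistic to 31 with an intensity trend in the prior. The share of all probe sets called lower moved too, at 3.20% and 7.19% in these 2 fits, beside 5.48% in the main fit. Of the 20 calls, 11 were kept with the ordinary statistic, which lost Sdhc, Uqcrq, Uqcr11, Cox5b, Cox6b1, Surf1, Atp5e, Atp5h and Atpaf1, and 18 with quantile scaling, which lost Atp5h and Atpaf1. None of the 48 was called higher in any of the 16 alternative fits. With 1 array left out the count was 12 to 18, where 3.25% to 4.45% of all probe sets were lower. The median log2 change of the members was −0.37 to −0.30 in these fits. By group, the counts with 1 array left out were 1 to 3 for complex II, 5 to 6 for complex III with cytochrome c, 2 in every fit for complex IV, 1 to 3 for ATP synthase and 3 to 5 for assembly factors. Complex IV had 4 calls with median centring, 4 without the lower quartile of level, 4 without probe sets below the median, 5 with the offset, 7 with the trend and 0 with the ordinary statistic. ATP synthase had 7 with the offset, 7 with either filter on dim probe sets and 7 with the trend. Of all tested probe sets, 6.96% were lower with the offset and 5.73% with median centring. The share was 8.25% without the lower quartile and 14.3% without probe sets below the median. The ordinary statistic gave 2 assembly factors, 1 other subunit, and 4 other assembly factors lower and 0 higher. It also gave 3 regulators, 6 complex I subunits and 7 cycle genes. The offset gave 1 higher regulator. With 1 array left out, the other subunits had 2 lower and 0 to 1 higher, the other assembly factors 3 to 7 lower and 0 to 2 higher, the regulators 2 to 4 lower, complex I 7 to 12 and the cycle 7 to 11, and Zc3h10 was at −0.52 to −0.22.

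Whether the replicate numbers in the labels pair the arrays is not settled. Deviations from the group means of same-numbered arrays correlated only weakly, at 0.08, −0.00464 and 0.04 across probe sets. The closest scramble array was number 1 for shRNA array 1, and number 3 for shRNA arrays 2 and 3. With the replicate number as a block, 15 of the 20 calls were kept and ATP synthase had 1, other assembly factors 5 lower and 1 higher, and the regulators 2. Signs turned for genes near 0: Atp5g1 (−0.000615 with quantile scaling, −0.00238 with median centring, −0.00872 with cyclic loess, −0.11 without scramble replicate 3, and −0.12 to 0.17 over all fits with 1 array left out), Cox6a2 (0.02, 0.037 and 0.00252 without scramble replicate 1, scramble replicate 3 and shRNA replicate 1) and Nrf1 (−0.012 with median centring, −0.030 to 0.037 with 1 array left out). With 1 array left out, the paralog differences were −0.54 to −0.37 for Atp5g3 minus Atp5g2, −0.50 to −0.36 for Cox7a2 minus Cox7a2l, −1.84 to −1.11 for Cox7a1 minus Cox7a2, −1.54 to −1.39 for Cox8b minus Cox8a, 0.19 to 0.36 for Cox6a2 minus Cox6a1 and 0.51 to 0.96 for Cox4i2 minus Cox4i1; Cox6a2 and Cox4i2 lay within background in both groups, so the sign of the last 2 carries no evidence. Atp5g1 minus Atp5g3 was 0.16 to 0.48, and Atp5g1 minus Atp5g2 −0.22 to 0.03. The offset gave −1.33 for Cox8b minus Cox8a and 0.39 for Cox4i2 minus Cox4i1, and quantile scaling 0.16 for Cox6a2 minus Cox6a1. The causes of these shifts were not tested. The number of arrays and the unknown background correction limit dim genes most.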

Other observations

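Level and change were weakly related across the 48 genes, with Pearson's r of −0.19 and Spearman's rho of −0.23; the genes share the same 6 arrays. The median log2 level was 8.91 for the 20 genes that fell and 8.31 for the 28 others. Of the 48 genes, 3 were at background (Cox7c, Atp5g1 and Atp5j2), and their transcripts cannot be judged from these probe sets. The 48 genes lie on 18 chromosomes. Sdhaf1 had a second, dimmer probe set at −0.54 ± 0.16 (adjusted p = 0.0813), beside −0.23 ± 0.10 for the brighter one. Among other subunits outside the 48 genes, the ATP synthase gene Atp5mpl was at −0.41 ± 0.10 (adjusted p = 0.0407), Atp5md at −0.25 ± 0.09 (adjusted p = 0.120), and Ndufa4, now counted to complex IV, at 0.08 ± 0.08 (adjusted p = 0.685), all by limma.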
